A study of Rattus norvegicus with 12 samples.

Results

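The potassium, sodium and calcium channel genes of cultured neonatal rat heart muscle cells were examined, 74 genes in all. They are the rows of the count table whose symbol begins with Kcn, Scn and a digit, Cacn, or Hcn and a digit, and that had at least 10 reads in at least 3 of the 12 libraries. The table of 32883 genes holds 136 such symbols, of which 62 fell below that level. The 74 genes comprise 47 potassium, 9 sodium and 16 calcium channel genes and 2 genes of hyperpolarization-activated (HCN) channels. Just inside the level rule were Kcna3, with 6 to 16 reads per library and 3 libraries at 10 or more, and Kcnc4 and Cacng4, with 4 such libraries; just outside were Kcnj9, Kcnk12, Kcnn2 and Scn10a, with 2. Of the 74, 72 also passed the filter of the statistical test. That filter kept 14063 genes in all and left out Kcna3 and Kcnc4. The cells were primary ventricular cardiomyocytes of newborn rats, and every group had received an adenovirus 2 days before. The virus carried LacZ, a bacterial gene used as control cargo, or human KAT6A, a histone acetyltransferase. KAT6A was delivered as the wild type (WT), as K815R, a mutant that resists acetylation, or as K815Q, a mutant that mimics it. There were 3 libraries in each of the 4 groups, and an uninfected group was not analysed here.

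Libraries held between 19102048 and 25451686 gene counts. The channel genes took 37223 to 52831 of those reads, which is 0.189% to 0.209% of each library. Levels are given as CPM, a gene's reads scaled to a common library total with TMM factors. A count of 3 corresponds to 0.118 to 0.156 CPM. Reads assigned to Kat6a, which cannot be divided here into those of the rat gene and of the human cargo, check the labels. Kat6a stood at 45.5, 45.2 and 53.6 CPM in the LacZ libraries, 90.8, 82.0 and 106 in WT, 102, 122 and 101 with K815R and 43.4, 50.0 and 45.7 in those labelled K815Q. Kat6a was thus raised over LacZ in WT and K815R but not in the K815Q-labelled libraries, and these are called by their label throughout. Groups also differed in Prkaa2, an AMPK catalytic subunit. Prkaa2 stood at 55.4, 54.8 and 72.7 CPM in the LacZ libraries, 488, 435 and 633 in WT, 78.1, 95.4 and 88.1 with K815R and 1232, 1134 and 1138 in those labelled K815Q. It was called higher than LacZ in WT and in the K815Q-labelled libraries, with log2 fold changes of 3.09 ± 0.17 (SE, edgeR adjusted p = 2.51e-05) and 4.26 ± 0.18 (SE, edgeR adjusted p = 4.06e-06), and not in K815R. Its part in the results of these groups was not tested. The cardiomyocyte markers, 8 of 8 measured, summed to between 40198 and 45831 CPM.

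Each heartbeat uses these genes in sequence. HCN channels bring the membrane toward threshold, voltage-gated sodium channels drive the upstroke, L-type calcium channels hold the plateau and trigger contraction, and potassium channels repolarize the cell and set its resting potential. Each pore works with accessory subunits that set its number at the surface and its gating: beta and alpha2delta subunits for calcium channels, beta subunits for sodium channels, and the Kcne, Kcnab and Kcnip families for potassium channels. Neonatal ventricular cells differ from adult ones in this set, with T-type calcium channels and pacemaker channels still expressed.

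Start-site windows of 3 genes are shown because their levels carry the contrasts described below: Cacnb3 was lower in WT than in each of the other 3 groups, Kcnt1 was lower in all 3 groups than in LacZ, and Kcnk2 separated K815R from the K815Q-labelled libraries. The windows run from 250 bases before to 50 bases after the annotated start, 5′ to 3′ on the gene's strand, and come from RefSeq on GRCr8. Capitals mark GC boxes (GGGCGG, or CCGCCC on the other strand) and GATA motifs (AGATAA or TGATAA, or TTATCT or TTATCA on the other strand). Kcnk2 and Kcnt1 each have 2 annotated starts.
Cacnb3, GRCr8 chr7:131666301-131666600, plus strand: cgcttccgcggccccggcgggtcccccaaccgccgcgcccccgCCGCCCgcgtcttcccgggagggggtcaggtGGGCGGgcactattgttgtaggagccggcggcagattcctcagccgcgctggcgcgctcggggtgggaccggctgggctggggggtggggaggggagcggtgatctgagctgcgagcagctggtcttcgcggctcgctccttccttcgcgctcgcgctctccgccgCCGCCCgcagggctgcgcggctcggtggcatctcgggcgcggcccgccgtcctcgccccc
Kcnt1, GRCr8 chr3:29081089-29081388, plus strand: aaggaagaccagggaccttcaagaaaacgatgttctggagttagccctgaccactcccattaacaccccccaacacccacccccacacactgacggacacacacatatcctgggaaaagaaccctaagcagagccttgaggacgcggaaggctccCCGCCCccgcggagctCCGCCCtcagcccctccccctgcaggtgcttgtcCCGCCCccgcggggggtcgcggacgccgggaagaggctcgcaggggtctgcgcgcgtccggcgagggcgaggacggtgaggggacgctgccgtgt
Kcnt1, GRCr8 chr3:29095846-29096145, plus strand: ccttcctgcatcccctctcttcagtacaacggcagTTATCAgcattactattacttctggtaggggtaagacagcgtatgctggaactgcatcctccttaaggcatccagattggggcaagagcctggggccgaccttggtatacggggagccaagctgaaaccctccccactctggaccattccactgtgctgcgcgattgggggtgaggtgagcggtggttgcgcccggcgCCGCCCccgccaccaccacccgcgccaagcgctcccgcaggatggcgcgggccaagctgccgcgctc
Kcnk2, GRCr8 chr13:103438593-103438892, minus strand: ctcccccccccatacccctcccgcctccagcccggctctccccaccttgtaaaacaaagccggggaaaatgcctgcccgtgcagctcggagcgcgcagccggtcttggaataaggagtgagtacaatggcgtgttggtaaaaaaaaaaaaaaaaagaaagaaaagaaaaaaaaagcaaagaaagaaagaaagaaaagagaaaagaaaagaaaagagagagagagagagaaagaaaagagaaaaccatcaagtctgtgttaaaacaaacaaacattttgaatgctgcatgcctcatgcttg
Kcnk2, GRCr8 chr13:103494637-103494936, minus strand: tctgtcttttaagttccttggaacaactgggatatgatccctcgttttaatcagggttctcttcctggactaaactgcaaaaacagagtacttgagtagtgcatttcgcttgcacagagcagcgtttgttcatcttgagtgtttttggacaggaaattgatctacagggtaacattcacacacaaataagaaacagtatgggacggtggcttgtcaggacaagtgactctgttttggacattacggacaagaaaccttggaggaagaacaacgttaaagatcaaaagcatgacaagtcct
The Cacnb3 window was 77.7% G or C with 44 CpG steps, and those of Kcnt1 were 66.7% and 62.7%. The Kcnk2 windows were 44.3% and 41.7% G or C, and neither held any of the 6 motifs searched.

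The table matched 48 of the 74 channel genes, with 54 windows, and 11 of the 17 genes called in the tests below; Cacna1g, the alpha subunit described first, has no entry. GC boxes occurred in 34 of the 54 channel windows (63.0%), against 33.1% of all 33469 windows of the table. The median G and C content was 63.2% for the channel windows and 51.7% for all windows. GATA motifs occurred in 16.7% against 18.9%, and the TATA box (TATAAA) in 1.85% against 14.2%. The E-box CACGTG occurred in 3.70% against 6.42%, the cAMP response element TGACGTCA in 0 of 54 windows against 1.83%, and a pair of GAAA separated by any 2 bases in 1.85% against 3.92%. All motifs were searched on both strands and may overlap one another. A match describes letters in the window and not a site in use. The channel genes were selected by read level and the windows of the whole table were not, so the sets differ in more than gene family.

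Most channel genes had small fold changes between the groups. Of the 72 tested, between 63 and 66 lay within 0.5 of 0 on the log2 scale in each of the 6 pairwise comparisons. The share of all tested genes within these bounds was not computed, so the count does not set the channel genes apart. The median log2 fold change of the channel genes was 0.04 in WT, -0.0011 in K815R and 0.02 in the K815Q-labelled libraries, each against LacZ. The medians of all tested genes were 0.0087, 0.0034 and 0.0065. Summed over all 74 genes, the level was 1869.8 to 1932 CPM for LacZ, 1988 to 2069 for WT, 1946 to 2082 for K815R and 1935 to 1995 for the K815Q-labelled libraries. By ion, the 47 potassium channel genes summed to 697 to 704 CPM for LacZ, 734 to 752 for WT, 702 to 720.2 for K815R and 738 to 752 for those labelled K815Q. The WT and labelled K815Q sums for potassium lay above every LacZ sum. Sums over all 74 genes in WT, K815R and the K815Q-labelled libraries also lay above every LacZ sum, so this does not set potassium apart. By mean level, 8 genes were at 100 CPM or more, 15 between 10 and 100, 33 between 1 and 10 and 18 below 1. The genes called below numbered 1, 6, 8 and 2 in these ranges. Of all tested genes 12.3% were called in at least 1 pairwise comparison. Their share within each range was not computed, so these counts do not set any range apart. In bulk RNA a change in the number of cells of a type cannot be told apart from a change in RNA per cell.

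**Figure D1:**
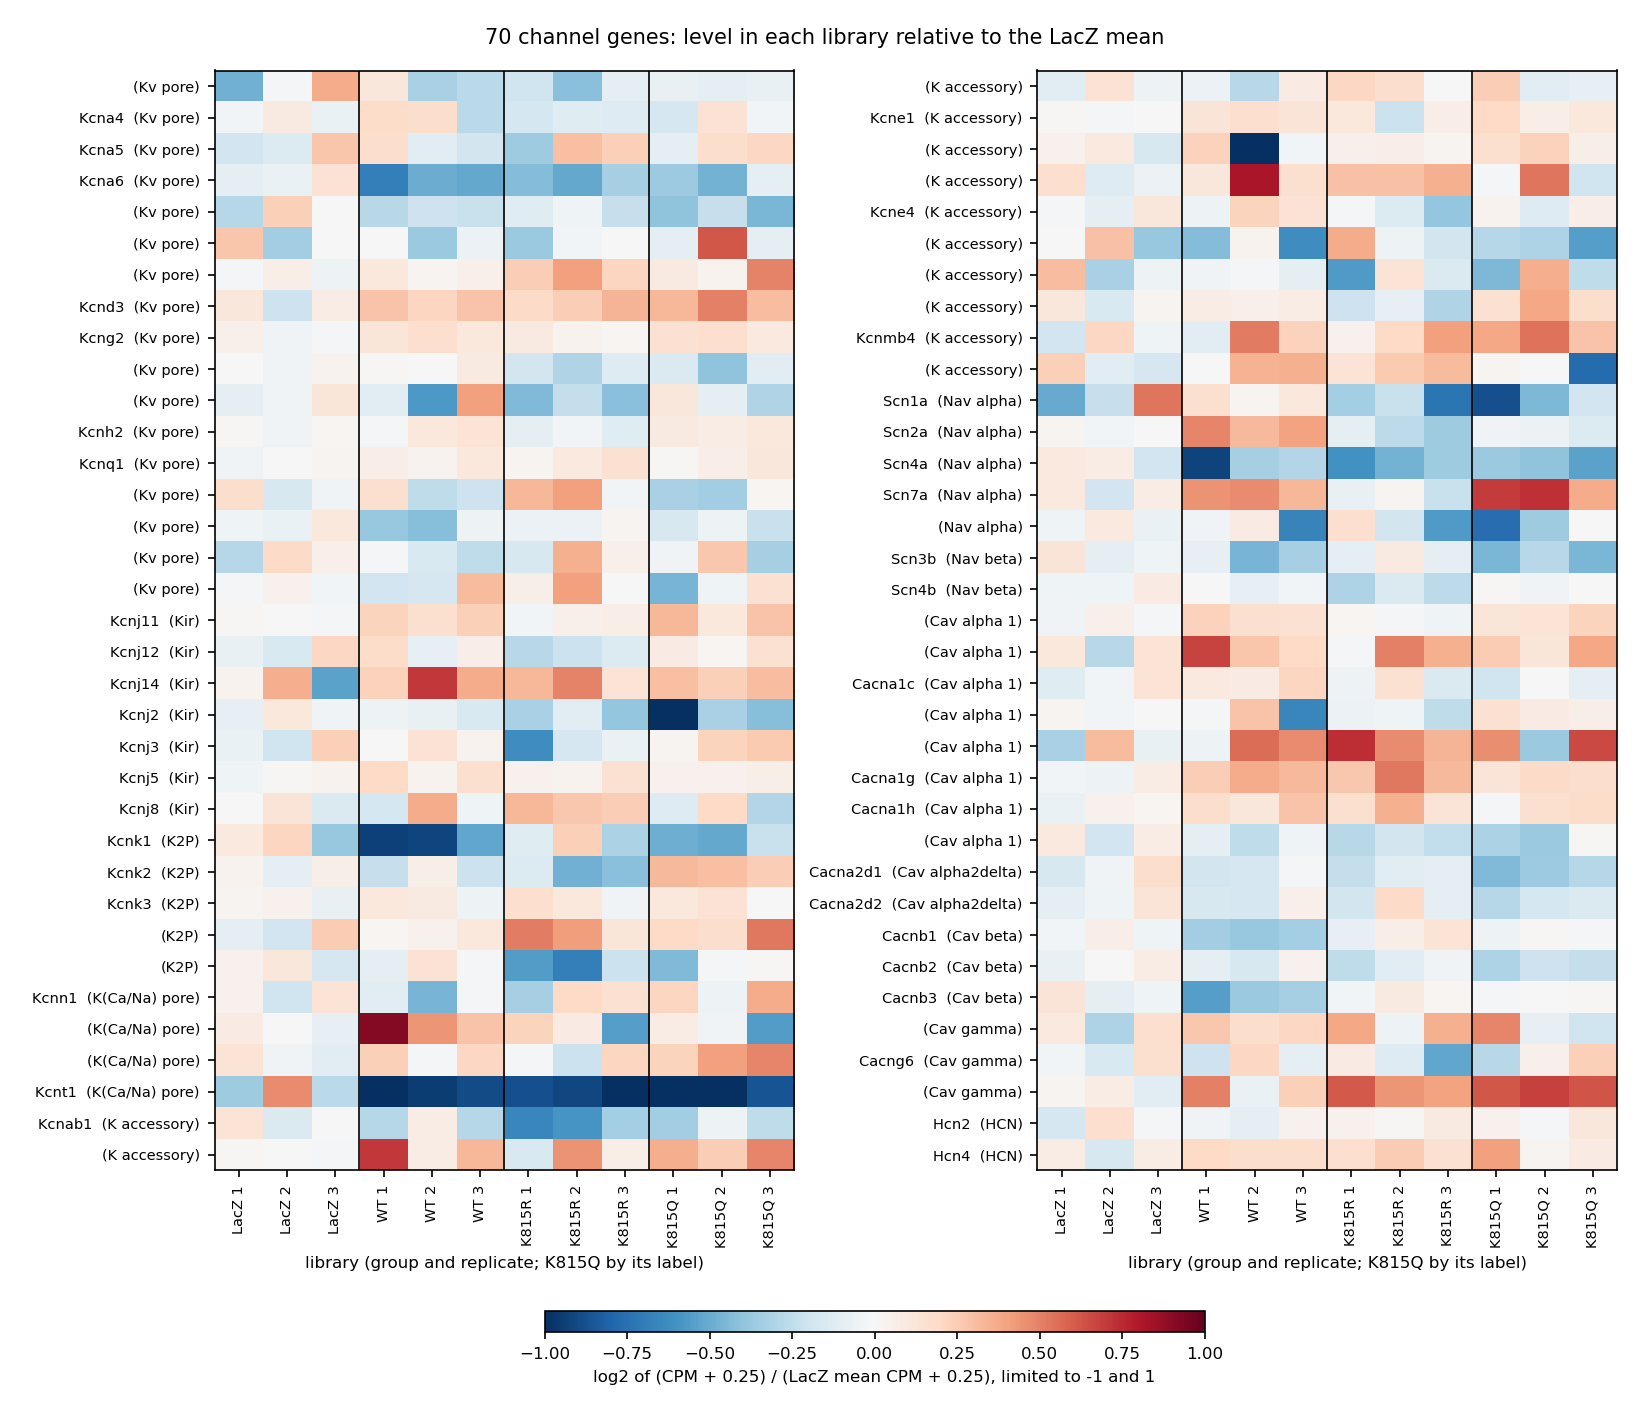
Level of 70 of the 74 channel genes in each of the 12 libraries, as the log2 of CPM plus 0.25 over the LacZ mean plus 0.25, with genes in rows ordered by class and libraries in columns; names are printed for 40 genes, red is above and blue below the LacZ mean, and the colour is limited to 1 in either direction. Most rows are pale throughout, Kcnt1 is blue in all 9 libraries outside LacZ, and Cacnb1 and Cacnb3 are blue in the 3 WT libraries.

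Differences were tested with edgeR's quasi-likelihood test over all genes, and a gene was called at a Benjamini-Hochberg adjusted p under 0.05. In WT against LacZ 8 of the 72 channel genes were called, 2 higher and 6 lower; of all tested genes 5.34% were called, 1.95% higher and 3.39% lower. In K815R against LacZ 2 were called, 1 in each direction, where 2.47% of all genes were called, 0.740% higher and 1.74% lower. The K815Q-labelled libraries differed from LacZ in 8 channel genes, 3 higher and 5 lower, where 7.85% of all genes were called, 2.87% higher and 4.98% lower. These 3 comparisons share the LacZ libraries. As shares of the channel genes tested the counts come to 11.1%, 2.78% and 11.1%, against 5.34%, 2.47% and 7.85% for all genes.

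Among the KAT6A forms, K815R differed from WT in 4 channel genes, 3 higher and 1 lower, where 2.20% of all genes were called, 1.32% higher and 0.882% lower. The K815Q-labelled libraries differed from WT in 1 channel gene, Cacnb3, which was higher, and 1.07% of all genes were called. K815R differed from the K815Q-labelled libraries in 1 channel gene, Kcnk2, which was lower, and 0.363% of all genes were called. Tested over all 4 groups at once, 12 channel genes passed, where 8.13% of all genes were called. Among these 12 were Cacna1g, Cacna2d1, Cacnb1, Cacnb3, Kcna6, Kcnd3, Kcnj11, Kcnk2, Kcnt1, Scn4a and Scn7a. Altogether 17 distinct channel genes were called in at least 1 pairwise comparison, where 12.3% of all genes were.

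**Figure D2:**
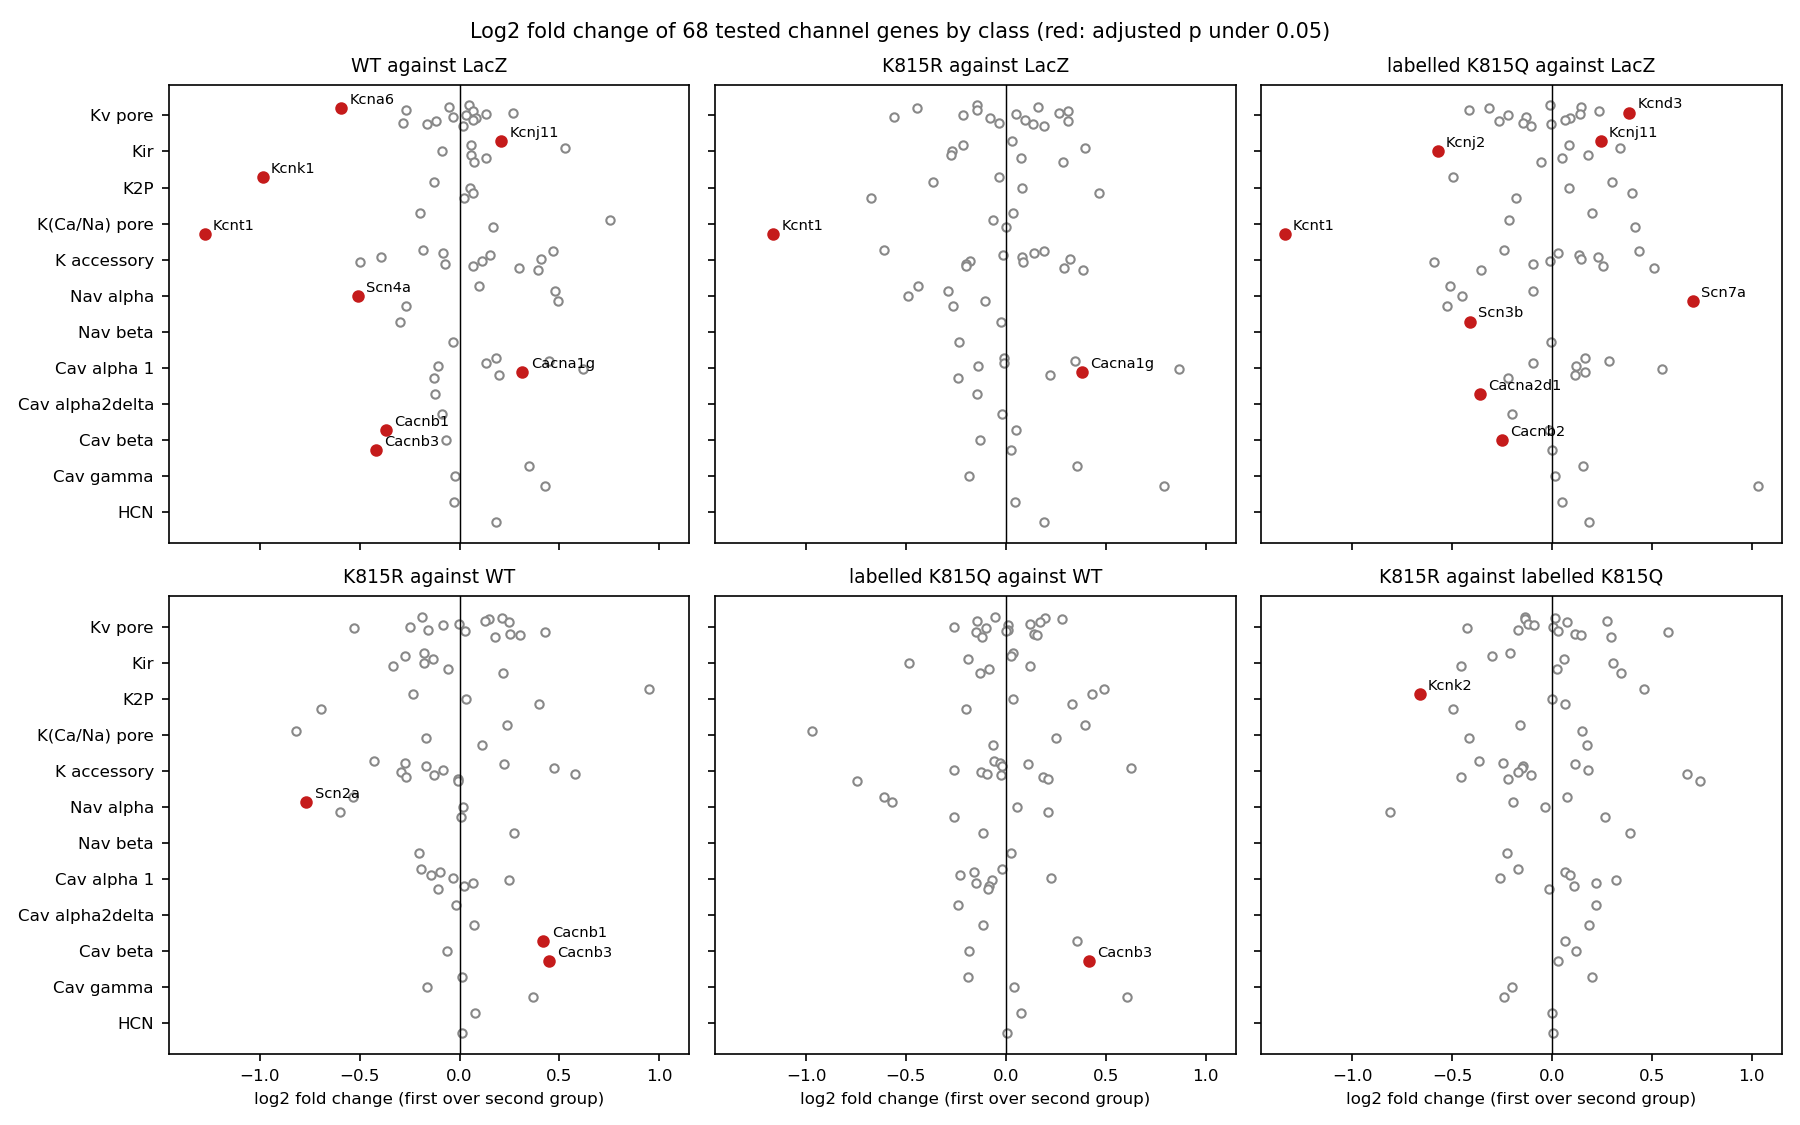
Log2 fold change of 68 of the 72 tested channel genes in the 6 pairwise comparisons, 1 panel each, with genes grouped by class on the vertical axis; filled red points with names are genes with an edgeR adjusted p under 0.05 and open points are the rest. Most points lie within 0.5 of 0, the Cacnb1 and Cacnb3 points lie on opposite sides in WT against LacZ and K815R against WT, and Kcnt1 is the lowest point in each comparison with LacZ.

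Calcium channel pores were led by a rise of Cacna1g, which encodes (as ENSRNOG00000060528 in the table) the pore of a T-type calcium channel, the low-voltage-activated kind prominent in immature heart muscle and in pacemaker tissue. Cacna1g stood at 163, 161 and 175 CPM in the LacZ libraries, 197, 215 and 208 in WT, 201, 240.0 and 208 with K815R and 181, 189.7 and 188 in those labelled K815Q. Every WT and K815R library lay above every LacZ library, and the labelled K815Q libraries lay between. The log2 fold change over LacZ was 0.31 ± 0.059 (SE, edgeR adjusted p = 0.00213) in WT and 0.38 ± 0.059 (SE, edgeR adjusted p = 0.000553) in K815R, and both calls held when any 1 of the libraries compared was left out. In the K815Q-labelled libraries it was 0.16 ± 0.059 (SE, edgeR adjusted p = 0.0872), which did not pass. K815R and WT differed by 0.067, with a 95% confidence interval of -0.055 to 0.19.

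Cacna1h, the other T-type pore gene of the panel, gave values in the same direction that did not pass the test. It stood at 116 to 126 CPM for LacZ, 132 to 149 for WT, 133 to 156 for K815R and 120.3 to 139 for the K815Q-labelled libraries. Against LacZ its log2 fold change was 0.20 ± 0.065 (SE, edgeR adjusted p = 0.0852) in WT and 0.22 ± 0.065 (SE, edgeR adjusted p = 0.0780) in K815R. Cacna1c, the pore of the cardiac L-type channel that triggers contraction, was at 108 to 129.5 CPM in LacZ and 125 to 136, 107 to 131 and 102 to 118 in WT, K815R and labelled K815Q, each of which overlapped LacZ. Its difference from LacZ had 95% confidence intervals of -0.033 to 0.30 for WT, -0.17 to 0.16 for K815R and -0.27 to 0.071 for the K815Q-labelled libraries, on the log2 scale. The remaining pore genes, Cacna1a, Cacna1b, Cacna1d, Cacna1e and Cacna1s, passed in no comparison.

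The log2 ratio of Cacna1c to Cacna1g within a library, which does not depend on scaling between libraries, was -0.60 to -0.43 for LacZ, -0.79 to -0.61 for WT, -0.97 to -0.83 for K815R and -0.83 to -0.69 for the K815Q-labelled libraries. The LacZ libraries had the 3 highest ratios. Together the 8 pore genes took 23.1 to 24.4% of the channel reads for LacZ, 25.6 to 26.1% for WT, 25.1 to 27.3% for K815R and 23.1 to 24.4% for the K815Q-labelled libraries. All WT and K815R shares lay above all others. These ratios and shares are descriptions, without a test.

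Calcium channel beta subunits sit on the inner face of the channel and promote its delivery to the membrane. All 3 measured genes of the class were called in at least 1 pairwise comparison, where 12.3% of all tested genes were. Cacnb1 and Cacnb3 were called in WT against LacZ, and Cacnb2 in the K815Q-labelled libraries against LacZ. Cacnb3 stood at 33.8, 28.7 and 29.9 CPM in the LacZ libraries, 20.9, 23.8 and 24.4 in WT, 30.1, 32.8 and 31.2 with K815R and 30.4, 30.8 and 31.1 in those labelled K815Q. The 3 WT libraries were the lowest of the 12, and the other 3 groups overlapped. The log2 fold change of WT over LacZ was -0.42 ± 0.073 (SE, edgeR adjusted p = 0.00106), that of K815R over WT 0.45 ± 0.073 (SE, edgeR adjusted p = 0.00198) and that of labelled K815Q over WT 0.42 ± 0.074 (SE, edgeR adjusted p = 0.00490). The first 2 calls held when any 1 library was left out. The third was lost without WT replicate 1, when the adjusted p was 0.0581. K815R and LacZ differed by 0.028, with a 95% confidence interval of -0.12 to 0.17. Of the 8 fibroblast markers, Pdgfra was called in the same 3 comparisons and directions, at means of 61.2 CPM for LacZ, 47.7 for WT, 69.2 for K815R and 58.7 for the K815Q-labelled libraries. Postn was called in the opposite direction in the first 2 of them, at means of 313 CPM for LacZ, 399 for WT and 310 for K815R. The part of either in the Cacnb3 values was not tested.

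Cacnb1, the beta subunit best known from skeletal muscle, was also lowest in WT. Cacnb1 stood at 6.33, 6.77 and 6.27 CPM in the LacZ libraries, 5.02, 4.91 and 5.04 in WT, 6.08, 6.78 and 7.13 with K815R and 6.24, 6.50 and 6.41 in those labelled K815Q. The 3 WT libraries again lay below the other 9. Cacnb1 had a log2 fold change of -0.37 ± 0.11 (SE, edgeR adjusted p = 0.0440) for WT over LacZ and 0.42 ± 0.11 (SE, edgeR adjusted p = 0.0406) for K815R over WT. Both calls were close to the threshold. The first was lost without LacZ replicates 1, 2 or 3 or WT replicates 1, 2 or 3, with the log2 fold change of the 6 such fits between -0.39 and -0.34 and the adjusted p up to 0.150. The second was lost without WT replicates 1, 2 or 3 or K815R replicates 2 or 3, with the log2 fold change of the 6 such fits between 0.37 and 0.48 and the adjusted p up to 0.156. The first was also lost without K815Q-labelled replicate 3 (adjusted p = 0.0502), and in other fits its adjusted p was 0.0588 without a filter, 0.143 with DESeq2, 0.0668 with only the 6 libraries compared and 0.0582 without the 3 libraries labelled K815Q. For the second, the adjusted p was 0.132 with DESeq2, 0.0742 with only the 6 libraries compared and 0.0565 without the 3 libraries labelled K815Q. The labelled K815Q libraries also lay above WT, at 0.35 ± 0.11 (SE, edgeR adjusted p = 0.126), which did not pass.

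In the K815Q-labelled libraries the genes called lower included 2 partners of the cardiac L-type pore, a beta and an alpha2delta subunit. Cacnb2, the main beta subunit of heart muscle, was at 43.9 to 47.0 CPM there and at 51.5 to 57.2 in LacZ, 48.7 to 56.0 in WT and 45.6 to 53.1 in K815R. Its log2 fold change over LacZ was -0.25 ± 0.066 (SE, edgeR adjusted p = 0.0223). Cacna2d1 stood at 36.4, 39.7 and 45.9 CPM in the LacZ libraries, 35.7, 36.1 and 40.1 in WT, 34.4, 37.8 and 38.2 with K815R and 29.8, 31.6 and 33.4 in those labelled K815Q. Cacna2d1 encodes the extracellular alpha2delta subunit that raises channel number at the surface. Its log2 fold change over LacZ was -0.36 ± 0.078 (SE, edgeR adjusted p = 0.00631) in the K815Q-labelled libraries, all 3 of which lay below the other 9. The Cacnb2 call was lost without LacZ replicates 2 or 3 or K815Q-labelled replicates 1 or 3, with the log2 fold change of the 6 such fits between -0.29 and -0.21 and the adjusted p up to 0.123. The Cacna2d1 call was lost without LacZ replicate 3 or K815Q-labelled replicate 1, with the log2 fold change of the 6 such fits between -0.44 and -0.27 and the adjusted p up to 0.0549. The direct comparison with WT gave -0.24 ± 0.079 (SE, edgeR adjusted p = 0.154) for Cacna2d1 and -0.18 ± 0.066 (SE, edgeR adjusted p = 0.191) for Cacnb2, and neither passed.

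Cacna2d2 stood at 53.4 to 62.1 CPM in LacZ and 46.6 to 51.4 in the K815Q-labelled libraries, with a log2 fold change of -0.20 ± 0.090 (SE, edgeR adjusted p = 0.181). The gamma subunit genes Cacng4, Cacng6, at 5.57 to 7.01 CPM in LacZ, and Cacng7 passed in no comparison. Cacng7 had the highest fold change of any channel gene in the K815Q-labelled libraries, 1.03 ± 0.35 (SE, edgeR adjusted p = 0.0759), from 5 to 12 reads per library. The 3 beta subunit genes together took 4.73 to 4.90% of channel reads for LacZ, 3.87 to 4.13% for WT, 4.18 to 4.70% for K815R and 4.16 to 4.23% for the K815Q-labelled libraries. The LacZ shares were above those of the other 9 libraries.

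Kcnk2 belongs to the two-pore-domain potassium channels, which pass background current, and its channel opens on membrane stretch and with certain lipids. Kcnk2 stood at 6.75, 6.15 and 6.88 CPM in the LacZ libraries, 5.58, 6.87 and 5.65 in WT, 5.98, 4.65 and 4.86 with K815R and 8.32, 8.18 and 7.87 in those labelled K815Q. The K815Q-labelled libraries held the 3 highest values, and K815R held the 2 lowest, with its replicate 1 inside the WT range. K815R was lower than the K815Q-labelled libraries by a log2 fold change of -0.66 ± 0.12 (SE, edgeR adjusted p = 0.0122), the only channel gene called between them. The test over the 4 groups gave an edgeR adjusted p of 0.00499, and that call held without any 1 library. The pairwise call was lost without K815R replicates 2 or 3 or K815Q-labelled replicate 1, with the log2 fold change of the 6 such fits between -0.77 and -0.59 and the adjusted p up to 0.0914. Against LacZ the log2 fold changes pointed in opposite directions, -0.36 ± 0.12 (SE, edgeR adjusted p = 0.118) in K815R and 0.30 ± 0.11 (SE, edgeR adjusted p = 0.103) in the K815Q-labelled libraries, and neither passed. The K815Q-labelled libraries lacked the raised Kat6a of the other constructs, so this direction holds for the libraries as labelled.

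Kcnk3, an acid-sensitive background channel of the same family, was at 97.4 to 106 CPM in LacZ and at 99.0 to 111, 100.2 to 116 and 103 to 113 in the other groups. Its K815R and labelled K815Q groups differed by -0.0017, with a 95% confidence interval of -0.13 to 0.12. The log2 ratio of Kcnk2 to Kcnk3 was -4.11 to -3.82 for LacZ, -4.31 to -3.99 for WT, -4.57 to -4.27 for K815R and -3.79 to -3.71 for the K815Q-labelled libraries. Kcnk1 stood at 1.30, 1.43 and 0.861 CPM in the LacZ libraries, 0.507, 0.517 and 0.760 in WT, 1.08, 1.46 and 0.908 with K815R and 0.780, 0.762 and 0.990 in those labelled K815Q. Kcnk1, a weakly conducting member of the family, fell in WT against LacZ by a log2 fold change of -0.99 ± 0.29 (SE, edgeR adjusted p = 0.0493), from 10 to 37 reads per library. Its call was lost without LacZ replicates 1 or 2 or WT replicates 1, 2 or 3, with the log2 fold change of the 6 such fits between -1.21 and -0.85 and the adjusted p up to 0.201. It was also lost without K815R replicates 1 or 3 or K815Q-labelled replicates 1, 2 or 3 (adjusted p between 0.0520 and 0.0595), and in other fits the adjusted p was 0.142 with DESeq2, 0.0573 with the replicate number as a block, 0.0586 with only the 6 libraries compared and 0.0610 without the 3 libraries labelled K815Q. Kcnk4 and Kcnk5 passed in no comparison.

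Kcnt1 encodes a potassium channel opened by intracellular sodium and had the largest fall of any channel gene against LacZ. Kcnt1 stood at 1.22, 2.36 and 1.31 CPM in the LacZ libraries, 0.507, 0.724 and 0.760 in WT, 0.773, 0.749 and 0.636 with K815R and 0.520, 0.609 and 0.782 in those labelled K815Q. All 9 libraries that received KAT6A constructs by their labels lay below all 3 LacZ libraries. The log2 fold change over LacZ was -1.28 ± 0.29 (SE, edgeR adjusted p = 0.00895) for WT, -1.17 ± 0.28 (SE, edgeR adjusted p = 0.0234) for K815R and -1.34 ± 0.29 (SE, edgeR adjusted p = 0.00701) for the K815Q-labelled libraries. These 3 groups overlapped one another, with log2 differences between -0.062 and 0.17. The gene had 10 to 53 reads per library, and LacZ replicate 2 was the highest library. Without LacZ replicate 2 every one of these calls was lost. The WT call was lost without LacZ replicate 2 or WT replicate 1, with the log2 fold change of the 6 such fits between -1.45 and -0.92 and the adjusted p up to 0.0939. For K815R it was lost without LacZ replicate 2 or K815R replicates 1, 2 or 3, with the log2 fold change of the 6 such fits between -1.34 and -0.81 and the adjusted p up to 0.201, and its adjusted p was 0.0693 with DESeq2. For the K815Q-labelled libraries it was lost without LacZ replicate 2 or K815Q-labelled replicate 1, with the log2 fold change of the 6 such fits between -1.51 and -0.98 and the adjusted p up to 0.0676. Of the calcium-activated channels in the same class, Kcnn1 was at 2.90 to 3.73 CPM in LacZ, and it, Kcnn3 and Kcnn4 passed in no comparison.

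Inward rectifiers hold the resting potential of ventricular cells and couple it to metabolism. Kcnj11, the pore of the ATP-sensitive potassium channel that opens when cellular ATP falls, rose in 2 groups. Kcnj11 stood at 58.9, 58.7 and 57.7 CPM in the LacZ libraries, 68.4, 65.2 and 68.9 in WT, 57.4, 60.5 and 61.2 with K815R and 73.7, 62.9 and 71.2 in those labelled K815Q. The LacZ and K815R ranges overlapped, and the WT and labelled K815Q libraries lay above both. Over LacZ, Kcnj11 had a log2 fold change of 0.21 ± 0.057 (SE, edgeR adjusted p = 0.0334) in WT and 0.24 ± 0.057 (SE, edgeR adjusted p = 0.0114) in the K815Q-labelled libraries. In K815R it was 0.031, with a 95% confidence interval of -0.088 to 0.15. The direct comparison of K815R with WT gave -0.18 ± 0.057 (SE, edgeR adjusted p = 0.127) and did not pass. The WT call was lost without LacZ replicates 1, 2 or 3 or WT replicates 1, 2 or 3, with the log2 fold change of the 6 such fits between 0.19 and 0.23 and the adjusted p up to 0.113. The other was lost without K815Q-labelled replicates 1 or 3, with the log2 fold change of the 6 such fits between 0.20 and 0.31 and the adjusted p up to 0.101.

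Abcc8, a sulfonylurea receptor that forms the regulatory subunit of that channel, also rose in WT, from 53.7 to 57.8 CPM in LacZ to 67.1 to 68.5, a log2 fold change of 0.27 ± 0.059 (SE, edgeR adjusted p = 0.00566). In the K815Q-labelled libraries, where Kcnj11 was called too, Abcc8 was at 56.3 to 65.3 CPM and overlapped LacZ. Its change there of 0.15 ± 0.059 (SE, edgeR adjusted p = 0.117) did not pass. Abcc8 lies beside Kcnj11 in the rat genome as annotated. Abcc9, the other receptor, was at 333 to 383 CPM in LacZ and 378 to 398 in WT, and the change of 0.15 ± 0.070 (SE, edgeR adjusted p = 0.270) did not pass. Kcnj8, the alternative pore of this channel, was at 20.0 to 24.1 CPM in LacZ and 19.5 to 28.6 in WT, and the groups overlapped.

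Kcnj2, the main pore of the classical inward rectifier current, fell in the K815Q-labelled libraries. Kcnj2 stood at 17.2, 19.7 and 17.7 CPM in the LacZ libraries, 17.6, 17.3 and 16.4 in WT, 14.5, 16.8 and 13.8 with K815R and 8.63, 14.5 and 13.5 in those labelled K815Q. All 3 libraries labelled K815Q lay below every LacZ and WT library, and their replicate 1 was the lowest of the 12. Relative to LacZ this was a log2 fold change of -0.57 ± 0.14 (SE, edgeR adjusted p = 0.0221). It was lost without LacZ replicates 2 or 3, with the log2 fold change of the 6 such fits between -0.72 and -0.38 and the adjusted p up to 0.0859, and in a fit of those 6 libraries alone (adjusted p = 0.0648). Its sister gene Kcnj12 was at 8.82 to 11.4 CPM in LacZ and 10.0 to 11.0 in the K815Q-labelled libraries, with 0.087 ± 0.10 (SE, edgeR adjusted p = 0.656). The log2 ratio of Kcnj2 to Kcnj12 was -0.28 to 0.54 there and 0.64 to 1.16 in LacZ, 0.65 to 0.90 in WT and 0.63 to 0.99 in K815R. Kcnj3 and Kcnj5, which form the acetylcholine-activated channel, were at 3.12 to 4.30 and 30.8 to 32.5 CPM in LacZ and passed in no comparison.

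Voltage-gated potassium channels repolarize the cell. Of the 17 tested pore genes, 3 were called in at least 1 pairwise comparison, where 12.3% of all tested genes were. Kcnd3, a pore of the transient outward current that shapes early repolarization, rose in the K815Q-labelled libraries. Kcnd3 stood at 12.0, 9.58 and 11.7 CPM in the LacZ libraries, 13.6, 12.9 and 13.5 in WT, 12.7, 13.2 and 14.1 with K815R and 14.0, 15.8 and 13.8 in those labelled K815Q. LacZ held the 3 lowest values. Its log2 fold change over LacZ was 0.39 ± 0.092 (SE, edgeR adjusted p = 0.0124), and 0.27 ± 0.093 (SE, edgeR adjusted p = 0.100) in WT and 0.27 ± 0.092 (SE, edgeR adjusted p = 0.155) in K815R, of which the last 2 did not pass. It was lost without LacZ replicate 2 or K815Q-labelled replicate 2, with the log2 fold change of the 6 such fits between 0.30 and 0.45 and the adjusted p up to 0.0843. The transient outward partners Kcnip2 and Kcnd2 were not analysed here: Kcnip2 reached at most 4 reads in any library, and no row carries the symbol Kcnd2.

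Kcna6, a delayed rectifier pore better known from neurons, fell in WT. Kcna6 stood at 5.57, 5.66 and 6.60 CPM in the LacZ libraries, 3.60, 4.13 and 4.09 in WT, 4.33, 4.10 and 4.68 with K815R and 4.57, 4.21 and 5.58 in those labelled K815Q. The WT libraries lay below all LacZ libraries, and the K815R and labelled K815Q libraries mostly lay between. WT over LacZ gave a log2 fold change of -0.59 ± 0.13 (SE, edgeR adjusted p = 0.00720), and the call held when any 1 of these libraries was left out. K815R gave -0.45 ± 0.13 (SE, edgeR adjusted p = 0.0611) and did not pass.

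Genes of the delayed rectifier currents that end the ventricular action potential passed in no comparison. Kcnh2, the pore of the rapid current, was at 125 to 130.2 CPM for LacZ, 127 to 141 for WT, 118 to 126 for K815R and 135 to 138 for the K815Q-labelled libraries. The largest of its 6 differences, K815R against labelled K815Q, was -0.17 ± 0.049 (SE, edgeR adjusted p = 0.139). Kcnq1, the pore of the slow current, was at 79.1 to 82.4 CPM in LacZ and 82.6 to 89.8 in K815R, with 95% confidence intervals over LacZ of -0.036 to 0.17 for WT, -0.0081 to 0.20 for K815R and -0.038 to 0.17 for the K815Q-labelled libraries. Kcne1, its accessory subunit, was at 3.25 to 3.31 CPM in LacZ, and the log2 ratio of Kcnq1 to Kcne1 was 4.58 to 4.65 in LacZ and 4.54 to 4.95 in K815R. Of other panel pores, Kcna4 was at 6.64 to 7.44 CPM in LacZ and Kcna5 at 0.377 to 0.615, and each overlapped WT. Kcng2, a silent subunit that forms channels only with another pore, was at 138 to 146 CPM in LacZ and 152 to 159 in the K815Q-labelled libraries, a log2 fold change of 0.14 ± 0.047 (SE, edgeR adjusted p = 0.0679). All 12 accessory potassium channel genes were tested and passed in no comparison, among them Kcne4 at 7.93 to 9.22 CPM in LacZ. Among those with a mean of at least 1 CPM, the most distant values against LacZ were Kcnab1 in K815R, -0.61 ± 0.20 (SE, edgeR adjusted p = 0.132), and Kcnmb4 in the K815Q-labelled libraries, 0.51 ± 0.25 (SE, edgeR adjusted p = 0.218). Among the inward rectifiers the highest value in WT was that of Kcnj14, 0.53 ± 0.23 (SE, edgeR adjusted p = 0.211), with LacZ at 0.820 to 1.74 CPM and WT at 1.57 to 2.27.

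**Figure D3:**
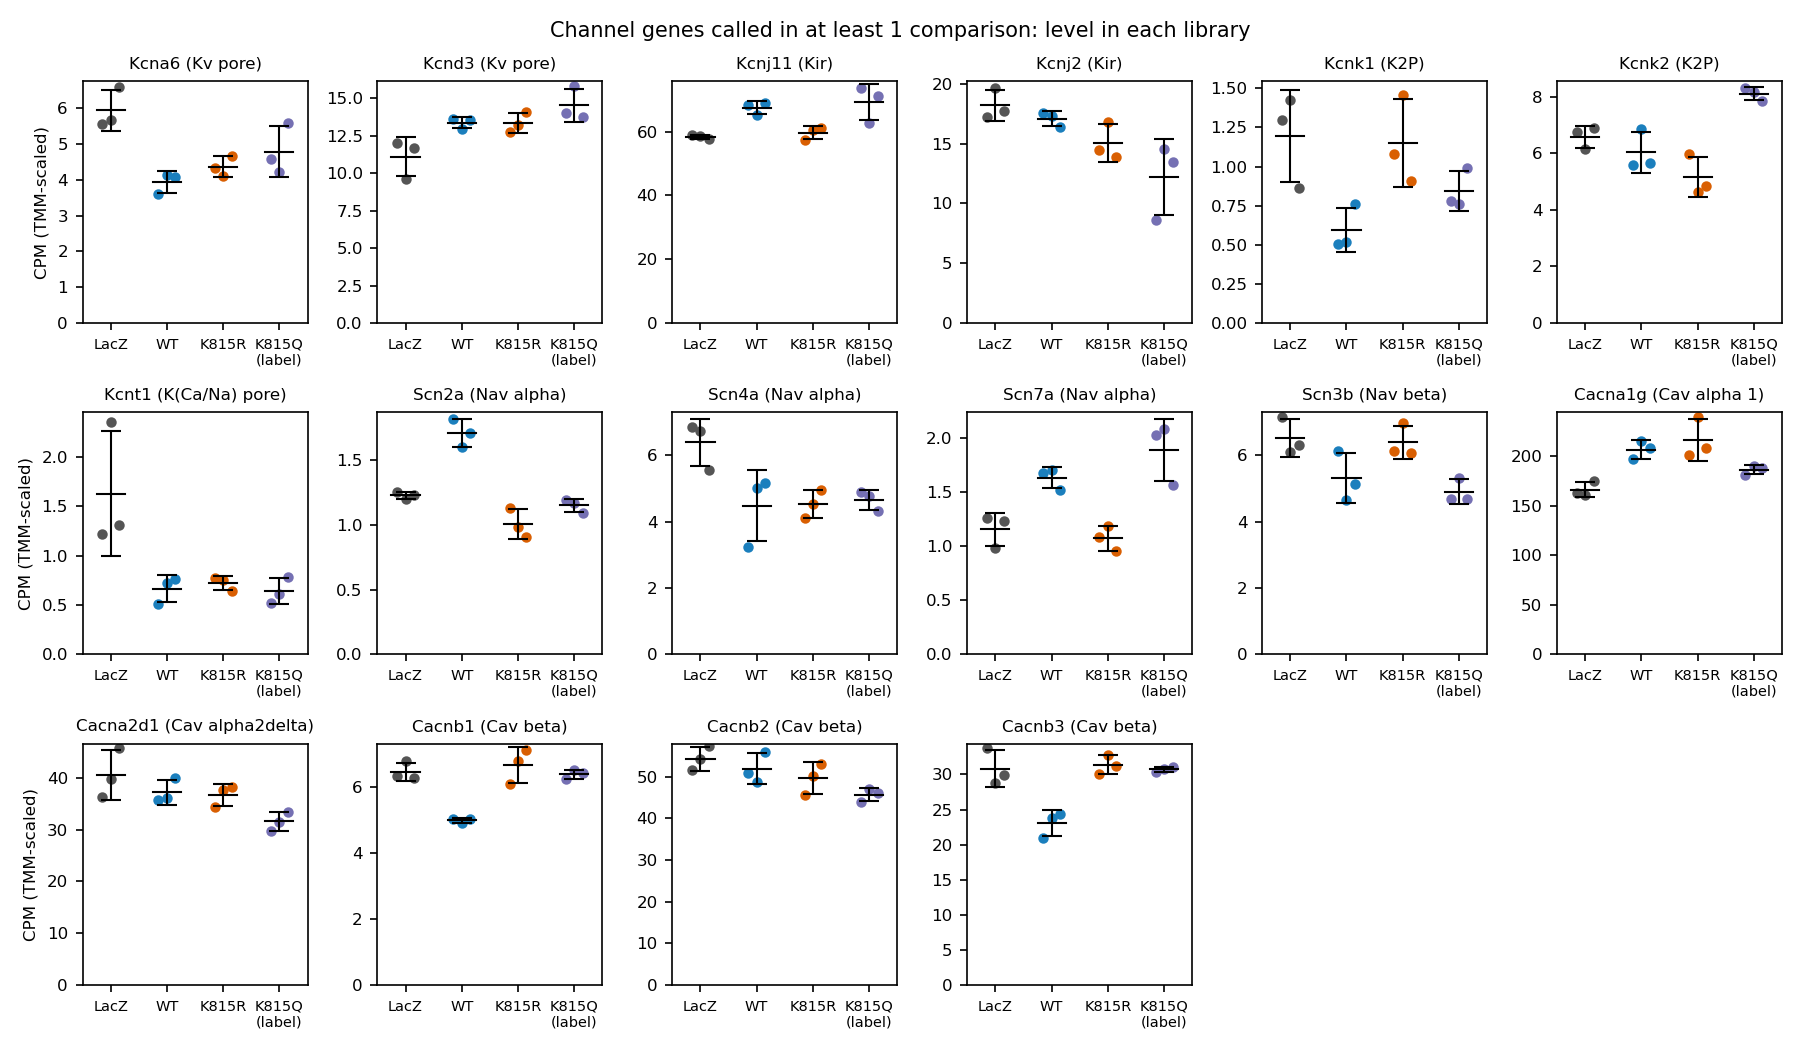
CPM of 16 of the 17 called channel genes in the 12 libraries, 1 panel per gene with its own axis from 0; points are libraries, horizontal lines group means and bars 1 SD (n = 3). Cacnb1 and Cacnb3 dip in WT, Cacna1g is raised in WT and K815R, Kcnk2 is highest in the K815Q-labelled libraries, and the Kcnt1 bar of LacZ is stretched by replicate 2 at 2.36 CPM.

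Among the 9 sodium channel genes tested, 4 were called in at least 1 pairwise comparison, where 12.3% of all tested genes were. Each of these 4 calls was lost with DESeq2. Scn4b, a beta subunit that modulates gating and adhesion, gave a K815R value of -0.24 ± 0.066 (SE, edgeR adjusted p = 0.0587) against LacZ, which did not pass. Scn4a, the skeletal muscle pore, fell in WT. Scn4a stood at 6.87, 6.73 and 5.57 CPM in the LacZ libraries, 3.25, 5.01 and 5.18 in WT, 4.12, 4.53 and 4.95 with K815R and 4.89, 4.77 and 4.32 in those labelled K815Q. LacZ held the 3 highest values. In WT the log2 fold change was -0.51 ± 0.15 (SE, edgeR adjusted p = 0.0410), and values in K815R (-0.49 ± 0.14 (SE, edgeR adjusted p = 0.0723)) and labelled K815Q (-0.45 ± 0.15 (SE, edgeR adjusted p = 0.0566)) did not pass. The WT call was lost without LacZ replicates 1 or 2 or WT replicates 1 or 2, with the log2 fold change of the 6 such fits between -0.63 and -0.32 and the adjusted p up to 0.208. It was also lost without K815Q-labelled replicate 1 (adjusted p = 0.050014), and in other fits the adjusted p was 0.0648 with DESeq2, 0.0634 with only the 6 libraries compared and 0.0553 without the 3 libraries labelled K815Q.

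Scn7a encodes an atypical pore that senses extracellular sodium and is also found in glia. Scn7a stood at 1.26, 0.980 and 1.23 CPM in the LacZ libraries, 1.67, 1.71 and 1.52 in WT, 1.08, 1.18 and 0.954 with K815R and 2.03, 2.08 and 1.56 in those labelled K815Q. The WT and labelled K815Q libraries lay above every LacZ and K815R library. Over LacZ, Scn7a had a log2 fold change of 0.70 ± 0.20 (SE, edgeR adjusted p = 0.0366) in the K815Q-labelled libraries and 0.49 ± 0.21 (SE, edgeR adjusted p = 0.185) in WT, of which the second did not pass. The call was lost without LacZ replicates 2 or 3 or K815Q-labelled replicates 1 or 2, with the log2 fold change of the 6 such fits between 0.60 and 0.82 and the adjusted p up to 0.149, and in other fits the adjusted p was 0.0578 without a filter, 0.133 with DESeq2 and 0.0540 with only the 6 libraries compared. Neuron and glia markers were 8 of 8 in the table and summed to 26.0 to 27.0 CPM for LacZ, 33.7 to 36.9 for WT, 31.6 to 34.4 for K815R and 35.9 to 43.8 for the K815Q-labelled libraries. Most of that sum was Tubb3, at 21.9 to 38.8 CPM, while Snap25 and Th each had a library at 0. The sum was above LacZ in all 9 other libraries, K815R included, and its part in the channel results was not tested.

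Scn2a, a pore of neurons, was highest in WT. Scn2a stood at 1.26, 1.20 and 1.23 CPM in the LacZ libraries, 1.83, 1.60 and 1.71 in WT, 1.13, 0.985 and 0.908 with K815R and 1.20, 1.17 and 1.09 in those labelled K815Q. The 3 WT libraries lay above the other 9. K815R was lower than WT, at -0.77 ± 0.20 (SE, edgeR adjusted p = 0.0479) on the log2 scale. This call was lost without WT replicates 1, 2 or 3 or K815R replicates 1, 2 or 3, with the log2 fold change of the 6 such fits between -0.85 and -0.70 and the adjusted p up to 0.171. It was also lost without LacZ replicates 1, 2 or 3 or K815Q-labelled replicates 1, 2 or 3 (adjusted p between 0.0550 and 0.0613), that is, whichever of the 12 libraries was left out. In other fits its adjusted p was 0.107 without a filter, 0.253 with DESeq2, 0.0587 with the replicate number as a block, 0.0805 with only the 6 libraries compared and 0.0652 without the 3 libraries labelled K815Q. The gene had 20 to 36 reads per library. Scn3b, a beta subunit, was at 7.16, 6.11 and 6.31 CPM in LacZ and 4.68, 5.33 and 4.69 in the K815Q-labelled libraries, a log2 fold change of -0.41 ± 0.12 (SE, edgeR adjusted p = 0.0426). It was lost without LacZ replicates 1, 2 or 3 or K815Q-labelled replicates 1 or 3, with the log2 fold change of the 6 such fits between -0.48 and -0.34 and the adjusted p up to 0.166, and without K815R replicate 3 (adjusted p = 0.0522), and its adjusted p was 0.0898 with DESeq2. Scn1a spread widely, from 3.64 to 7.75 CPM within LacZ alone, and its labelled K815Q value against WT, -0.61 ± 0.28 (SE, edgeR adjusted p = 0.346), did not pass.

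The pacemaker channel genes passed in no comparison. Hcn2 was at 87.0 to 110.1 CPM for LacZ, 91.4 to 101 for WT, 99.0 to 104 for K815R and 97.0 to 106 for the K815Q-labelled libraries. Its 95% confidence intervals over LacZ were -0.17 to 0.11, -0.088 to 0.18 and -0.089 to 0.18 on the log2 scale in the same order. Hcn4, the form that prevails in the sinus node, was at 16.3 to 19.3 CPM in LacZ and 20.6 to 20.9, 20.3 to 21.8 and 18.6 to 24.4 in the others, with log2 fold changes of 0.18, 0.19 and 0.19 over LacZ. Its smallest adjusted p in these comparisons was 0.205 by edgeR.

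A panel of 30 genes that carry the main currents of heart muscle was followed whatever its result, and 25 of them met the level rule. Of these 25, Cacna1g was called in WT and K815R against LacZ, and Kcnj11 in WT and in the K815Q-labelled libraries against LacZ. Kcnd3, Kcnj2, Cacna2d1 and Cacnb2 were called in the K815Q-labelled libraries against LacZ, and Kcnk2 in K815R against those. Kcnip2, Kcnn2 and Kcnma1 fell below the rule. Levels of different genes are not ordered here, since reads per gene also depend on transcript length.

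**Figure D4:**
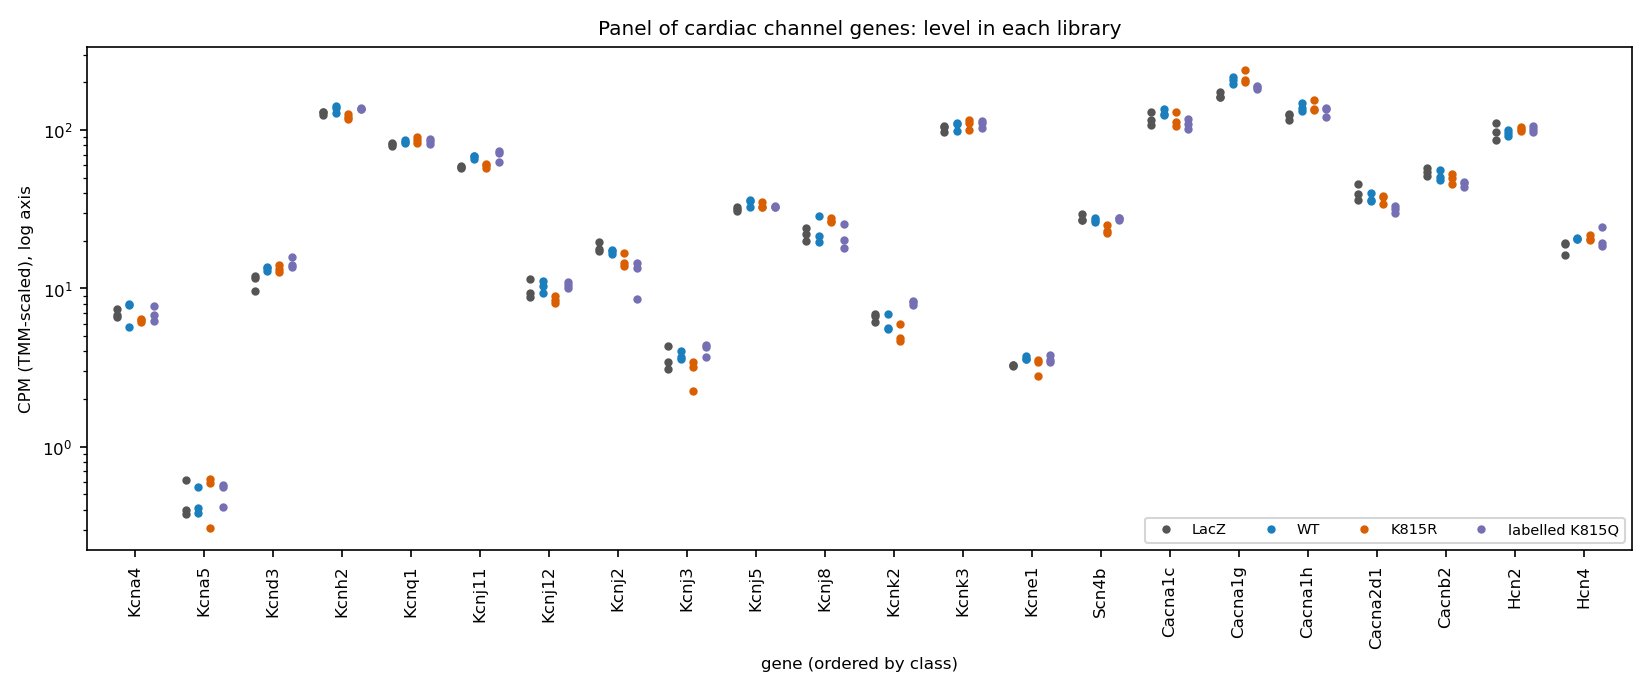
CPM on a log axis of 22 of the 25 panel genes that met the level rule, with genes on the horizontal axis ordered by class and 1 point per library coloured by group. For most genes the points of the 4 groups lie close together on this scale, while the LacZ points of Cacna1g are its lowest, the labelled K815Q points of Kcnk2 are its highest and those of Kcnj2 lie below its LacZ and WT points.

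Other genes tied to channel function, such as pumps, exchangers, connexins, regulators and transcription factors of the conduction system, were followed as a list of 65, of which 59 were tested. In WT, K815R and labelled K815Q against LacZ, 3, 3 and 7 were called, or 5.08%, 5.08% and 11.9% of the list, where 5.34%, 2.47% and 7.85% of all genes were. In each comparison among the KAT6A forms 1 was called, or 1.69%, where 2.20% of all genes were called in K815R against WT, 1.07% in labelled K815Q against WT and 0.363% in K815R against labelled K815Q. Rrad, a small GTPase that restrains L-type calcium current through the beta subunit, was at 530.0 to 639 CPM in LacZ and 430.5 to 479 in the K815Q-labelled libraries, a log2 fold change of -0.34 ± 0.076 (SE, edgeR adjusted p = 0.0120). Against WT it was -0.43 ± 0.076 (SE, edgeR adjusted p = 0.00963) there.

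Gja5, a connexin of atrial and conduction cells, was at 21.6 to 26.5 CPM in K815R, below all other libraries, which gave -0.40 ± 0.087 (SE, edgeR adjusted p = 0.0132) against LacZ and -0.50 ± 0.088 (SE, edgeR adjusted p = 0.0122) against the K815Q-labelled libraries. Irx3 and Irx5, transcription factors of the ventricular conduction and repolarization programme, rose in the K815Q-labelled libraries, with log2 fold changes over LacZ of 0.43 ± 0.075 (SE, edgeR adjusted p = 0.00143) and 0.38 ± 0.075 (SE, edgeR adjusted p = 0.00274). Irx3 also rose in K815R, at 0.29 ± 0.075 (SE, edgeR adjusted p = 0.0426). Popdc2, a membrane protein that binds cAMP, rose in WT (0.21 ± 0.059 (SE, edgeR adjusted p = 0.0414)) and in the K815Q-labelled libraries (0.22 ± 0.059 (SE, edgeR adjusted p = 0.0297)). The chloride transporter Clcn3 and the kinase subunit Prkacb fell in the K815Q-labelled libraries, with log2 fold changes over LacZ of -0.40 ± 0.085 (SE, edgeR adjusted p = 0.00773) and -0.43 ± 0.10 (SE, edgeR adjusted p = 0.0122). Slc4a3, an anion exchanger, was lower in K815R than in WT, with a log2 fold change of -0.22 ± 0.052 (SE, edgeR adjusted p = 0.0264). Rem1, a relative of Rrad, was called only by the test over the 4 groups.

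Marker lists of the cell types that such cultures can hold were summed in each library. Cardiomyocyte markers summed to 40198 to 43372 CPM in the 9 libraries outside K815R and to 44666 to 45831 in K815R. Of these 8 markers, only Myh7 and Nppa were called between K815R and WT, both higher in K815R. The median log2 fold change of the 8 in that comparison was -0.012, so the higher sum was not a rise of the list as a whole. Fibroblast markers, 8 of 8 measured, summed to 11818 to 12686 CPM for LacZ, 10960 to 12012 for WT, 11062 to 11510 for K815R and 11913 to 12803 for the K815Q-labelled libraries. Smooth muscle and pericyte markers were 8 of 8 and lay between 4119 and 4717 CPM in all groups. Endothelial markers were 7 of 8 in the table, with Cldn5 at 0 in every library, and summed to 126 to 194 CPM. Macrophage markers were 8 of 8 and summed to 46.5 to 61.5 CPM in LacZ and 60.6 to 68.7 elsewhere. Markers of atrial and conduction cells were 8 of 8 and summed to 1038 to 1295 CPM. The part of any of these in the channel results was not tested.

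Some channel genes share their span with another gene in RefSeq's annotation of GRCr8, where all 74 were found by symbol. Whole spans were compared, introns included, and not exons. The strand setting of the counting is not given, so it is unknown whether reads in a shared stretch were separated by strand. A protein-coding neighbour overlapped 8 channel genes, 3 of them called: Cacnb3 with Tuba1c, Cacnb1 with Rpl19, and Kcnk2 with a predicted gene. Tuba1c averaged 1.52 CPM over all libraries and had a log2 fold change of -0.68 in WT against LacZ, with an edgeR adjusted p of 0.0585. Rpl19 averaged 546 CPM and changed by -0.0061 in the same comparison, with an adjusted p of 0.970.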

How the data were processed

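Poly(A) RNA of 12 libraries was sequenced as single reads, and the authors deposited raw read counts per gene in a single table. The deposited counts are whole numbers and not normalized. The submitters' processing notes name Trimmomatic 0.39, HISAT2 2.2.1, HTSeq 0.6.1, edgeR and the build Rnor_6.0, without their roles; the annotation and strand setting are not given in the sources used here. The 5 counter lines that name no gene stayed out: 11.7% to 12.9% of reads lay in no feature, 25.6% to 26.9% aligned to several places, 0.461% to 0.500% were ambiguous between genes and 2.69% to 3.06% were unaligned. Near-identical genes are therefore counted from part of their reads.

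Groups and replicate numbers came from the sample titles. Nothing says that libraries came from separate cultures, so p-values measure only the spread between these samples. Within groups, chi-square per degree of freedom over genes lay between 4.78 and 9.29, so no pair agreed within sampling noise.

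Counts were scaled by TMM and filtered with filterByExpr (minimum count 10, minimum total 15). One model of group means over the 12 libraries was fitted with edgeR 4.0.16 in R 4.3.3 (robust quasi-likelihood test, Benjamini-Hochberg over 14063 genes, called at an adjusted p under 0.05), with 6 pairwise contrasts and a test over the 4 groups. The script was tested on simulated data with known changes. Alternatives were RLE scaling, no filter, the level rule as filter, DESeq2 1.42.0, the replicate number as a block, fits of the 6 libraries compared, and leaving out each library; a fit without the K815Q-labelled libraries was added after seeing the data.

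Named genes are those called in any comparison, the panel, the 2 highest and 2 lowest fold changes per comparison among genes with a mean of at least 1 CPM, and the gene with the highest mean CPM of each class. The channel genes, lists and panel were chosen with earlier results of these data known. RefSeq tables of GRCr8 gave start-site windows, names and neighbours only; because the build differs, no other coordinates are given. Results of some genes are not reported here, in the text or in the plots; they stay in the counts and fits.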

Additional observations from a re-analysis of the deposited data

How the results depend on the processing

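Over the 24 pairwise calls, no alternative reversed a direction. RLE scaling and the level rule as filter kept all 24; without a filter 3 were lost, with the replicate block 2, with fits of only the 6 libraries compared 7 and with DESeq2 8. In the fit of 9 libraries without those labelled K815Q, 5 of 14 were lost. Leaving out 1 library lost 81 of 288. The cause of these losses was not tested. Fits of 6 or 9 libraries and those leaving out 1 had fewer libraries, and the fit without a filter had more tested genes. DESeq2 and the replicate block used all 12 libraries and the same tested genes as the main fit.

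The number of channel genes called in WT against LacZ was 8; with DESeq2 it was 5 and in the fit without the libraries labelled K815Q 5. For K815R against LacZ it was 2, without a filter 7 and with only 6 libraries 4. For K815R against WT it was 4, with DESeq2 2, with only 6 libraries 2 and in the fit without the libraries labelled K815Q 2. For labelled K815Q against WT it was 1, without a filter 5, with DESeq2 2, with only 6 libraries 3 and with the replicate block 2. For K815R against labelled K815Q it was 1 and without a filter 4. The test over the 4 groups gave 12, and 19 without a filter.

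Leaving out each library in turn gave 3 to 10 calls in WT against LacZ, 1 to 3 in K815R against LacZ, 2 to 9 in labelled K815Q against LacZ, 1 to 3 in K815R against WT, 0 to 2 in labelled K815Q against WT, 0 to 2 in K815R against labelled K815Q, and 7 to 13 in the test over the 4 groups. Counts that moved by over 1.5 times were, in WT against LacZ, 4 and 3 without LacZ replicates 1 and 2 and 3, 4 and 5 without WT replicates 1, 2 and 3; in labelled K815Q against LacZ, 2 and 3 without LacZ replicates 2 and 3 and 2 without labelled K815Q replicate 1; and in K815R against LacZ, 1 without K815R replicate 1 or 3. K815R against WT gave 1, 1 and 2 without WT replicates 1, 2 and 3 and 2 without K815R replicate 3. Labelled K815Q against WT gave 0 without WT replicate 1 and 2 without labelled K815Q replicate 2, and K815R against labelled K815Q gave 0 without K815R replicate 2 or 3 or labelled K815Q replicate 1 and 2 without labelled K815Q replicate 2. The test over the 4 groups gave 7 without LacZ replicate 2 or labelled K815Q replicate 1.

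Same-numbered libraries of different groups did not deviate together, with correlations of -0.127 to 0.122 over 18 pairs, and 5 of 12 libraries correlated best with their own number, so the numbers were not taken to pair the samples. With the replicate block, the counts were 7, 3, 8, 3, 2 and 1 in the pairwise comparisons in the order above and 14 in the test over the 4 groups. Depth limits genes near 1 CPM, where calls rested on few reads.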
